A study of Mus musculus with 18 samples.

Results

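The 10 genes that mark the stem cells at the crypt base or report Wnt signalling were followed through the 6 groups of the series. The rule took the rows of the count table named Lgr5, Olfm4, Ascl2, Smoc2, Tnfrsf19, Axin2, Rnf43, Znrf3, Nkd1 or Sox9, which gave 10 of 55335 genes. All 10 passed the filter on low counts, as did 21349 genes in all. The rule itself used gene names and no measured value, but the genes were proposed with earlier results of these data known. The first 5 are described as stem cell markers and the last 5 as general Wnt targets. The libraries came from small intestinal crypts of mice aged 8 to 12 weeks. Both alleles of PRMT1 were floxed in every mouse (PRMT1 fl/fl), and every mouse received tamoxifen by intraperitoneal injection, 2 mg per injection. The KO mice also carried Vil-CreERT2, in which the villin promoter drives a tamoxifen-activated Cre in the intestinal epithelium, so that cells outside the epithelium kept the gene. The WT mice were floxed littermates without Cre, so the groups also differ in the presence of active CreERT2, which cannot be told apart from the loss of PRMT1. Crypts were taken 2, 7 or 14 days after the first injection, with 2 injections before day 2 and 5 before days 7 and 14, from 3 KO and 3 WT mice per day.

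Intestinal stem cells sit between Paneth cells at the crypt base and depend on Wnt ligands. Binding of a Wnt to its Frizzled and Lrp receptors stabilises β-catenin, which enters the nucleus and activates transcription together with TCF/LEF factors. Lgr5 is the R-spondin receptor that marks the cycling stem cells, and Ascl2 is a transcription factor that maintains their identity. Olfm4 encodes a secreted glycoprotein, Smoc2 a matricellular calcium-binding protein and Tnfrsf19 (also called Troy) a TNF receptor family member, and each is enriched in the same cells. Axin2, Nkd1, Rnf43 and Znrf3 are feedback inhibitors that Wnt signalling itself induces. Axin2 is a scaffold of the complex that destroys β-catenin, Nkd1 binds Dishevelled, and Rnf43 and Znrf3 are membrane ubiquitin ligases that remove Frizzled from the cell surface. Sox9 is a transcription factor induced by Wnt in stem, progenitor and Paneth cells. The grouping is not exclusive, since several of the stem cell markers are Wnt targets as well.

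In mm10, the build of the counts, the stem cell markers lie at chr10:115450311-115587780 on the minus strand (Lgr5), chr14:79984081-80023139 on the plus strand (Olfm4), chr7:142966829-142969264 on the minus strand (Ascl2), chr17:14279506-14404790 on the plus strand (Smoc2) and chr14:60963875-61046490 on the minus strand (Tnfrsf19). Of the Wnt targets, 4 are on chromosome 11, Axin2 at chr11:108920349-108950783, Rnf43 at chr11:87662722-87735539 and Sox9 at chr11:112782224-112787760 on the plus strand and Znrf3 at chr11:5276324-5444847 on the minus strand. Nkd1 lies at chr8:88521354-88594884 on the plus strand. Counts were taken over all exons of each gene.

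Promoters were looked up because the members moved together, and 6 of the 10 genes matched the RefSeq promoter table (build GRCm38.p6), with 8 promoters in all. The 250 bases before each start were searched on both strands for the TCF/LEF core CTTTGAT and for the E-box CAGCTG, the letters bound by basic helix-loop-helix factors such as Ascl2. Of the 32851 promoters in the table, 3.21% held CTTTGAT and 13% held CAGCTG. Among the 8 member promoters 1 held CTTTGAT and 2 held CAGCTG. The sequences of Axin2, which differed least between KO and WT at day 7, and of Nkd1, the Wnt target that differed most, are shown whole. Axin2 held neither CTTTGAT nor CAGCTG, and the E-boxes of Nkd1 are in capitals. The other promoter with CAGCTG was that of the second RefSeq start of Tnfrsf19, 10 bases before the start, and this E-box is not shown. For Tnfrsf19 the stretch around the TCF/LEF match is shown with the match in capitals on the opposite strand.
Axin2: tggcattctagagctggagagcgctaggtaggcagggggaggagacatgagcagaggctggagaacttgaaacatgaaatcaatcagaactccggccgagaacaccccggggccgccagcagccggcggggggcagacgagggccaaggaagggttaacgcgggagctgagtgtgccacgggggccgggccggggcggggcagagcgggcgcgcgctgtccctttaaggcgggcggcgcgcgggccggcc
Nkd1: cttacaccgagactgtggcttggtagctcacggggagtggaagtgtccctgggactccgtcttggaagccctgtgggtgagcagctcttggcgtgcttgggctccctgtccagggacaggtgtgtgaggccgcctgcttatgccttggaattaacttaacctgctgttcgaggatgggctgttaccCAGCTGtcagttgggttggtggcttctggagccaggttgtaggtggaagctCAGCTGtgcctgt
Tnfrsf19: ctgaatgggggATCAAAGtgacaaactaga
The Axin2 window lies at chr11:108920099-108920348 on the plus strand, directly before the gene's first exon. The Nkd1 window lies at chr8:88527383-88527632 on the plus strand, inside the span of the gene and outside its annotated exons, before an internal start. Its E-boxes begin 64 and 13 bases before that start. The Tnfrsf19 stretch lies at chr14:61038171-61038200 on the minus strand, outside annotated exons, and its match begins 202 bases before the second RefSeq start of the gene. These matches describe letters only, and no binding was measured here.

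The libraries held 12844642 to 31493484 counts, with a median of 21266804.5. Prmt1 was lower in KO on each day, with 13.1 to 17.4 CPM (counts scaled to library size) over the 9 KO libraries and 20.2 to 30.6 over the 9 WT libraries. The KO means were 54.1%, 66.4% and 60.9% of WT at days 2, 7 and 14 (edgeR adjusted p = 0.0264, 0.00675 and 0.00329), so counts of the gene remained in KO crypts. The 6 epithelial markers (such as Epcam and Cdh1) summed to 3983 to 7138 CPM in every library, the 14 stromal markers, 13 of them tested, to 31.4 to 215.6 CPM and the 12 immune markers to 48.0 to 115.6 CPM. All 6 epithelial markers and all 12 immune markers were tested and none was called on any day, while 2 stromal markers, Vim (1.08 ± 0.23, edgeR adjusted p = 0.0025) and Pecam1 (1.29 ± 0.36, 0.0188), were called higher in KO at day 7. None of these lists had its total at 0. Libraries of the same group correlated at r = 0.97 to 0.99 over the tested genes.

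In WT crypts the members covered a wide range of levels. Per length, Olfm4 was far above the rest at 446.1 ± 66.8 RPKM (CPM per kilobase of exon, mean ± SD, n = 9 WT libraries). Axin2 (18.6 ± 3.86), Smoc2 (15.7 ± 1.80) and Rnf43 (12.3 ± 1.39 RPKM) followed, and the ranges of neighbours in this order overlapped. Sox9 stood alone at 7.16 ± 1.18 RPKM. Ascl2 (3.66 ± 0.58), Znrf3 (3.56 ± 0.44) and Lgr5 (3.52 ± 0.60 RPKM) were not separated from each other. Tnfrsf19 at 1.67 ± 0.25 RPKM and Nkd1 at 0.67 ± 0.17 RPKM came last, each without overlap with its neighbour. A fragment that overlapped more than one gene counted for every one of them, and 153 of the 2962 exon bases of Olfm4 are shared with Gm6999 and 209 of the 5506 exon bases of Axin2 with the antisense gene Gm11670. The other 8 members share no exon base with another gene.

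At day 2 no difference between KO and WT crypts passed the test for any stem cell marker or Wnt target. None of the 10 members was called, each with an adjusted p of 0.999 by edgeR's quasi-likelihood test (Benjamini-Hochberg adjusted over all tested genes, called edgeR's test from here), and none had an unadjusted p under 0.05, as 3.33% of all tested genes did. DESeq2 called 0 of them too. Of all tested genes 0.0328% were called on that day. Lgr5 held 34.1, 28.2 and 32.4 CPM in the 3 KO libraries and 36.4, 32.1 and 29.4 in the 3 WT libraries (log2 fold change −0.05 ± 0.28, SE). Smoc2 lay at 98.7, 99.0 and 101.0 CPM in KO and 94.9, 106.5 and 89.9 in WT (0.04 ± 0.17). Both genes overlapped between genotypes.

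For 3 members there was no overlap between genotypes at day 2, where 8.16% of all tested genes did. Axin2 held 83.7, 101.7 and 99.1 CPM in KO and 78.8, 79.6 and 77.7 in WT, a log2 fold change of 0.27 ± 0.19. Nkd1 was at 3.60, 3.59 and 3.54 CPM in KO and 2.34, 2.36 and 2.64 in WT (0.55 ± 0.26), and its unadjusted p was 0.05 at the printed precision. Every KO library was above every WT library for these 2 feedback inhibitors. Olfm4 lay the other way, at 1439, 1011 and 1461 CPM in KO and 1511, 1571 and 1497 in WT (−0.23 ± 0.28). None of the 3 differences passed edgeR's test. For the other 5 members the groups overlapped, with log2 fold changes of 0.30 ± 0.26 for Ascl2, 0.08 ± 0.29 for Tnfrsf19, −0.09 ± 0.17 for Rnf43, −0.05 ± 0.12 for Znrf3 and 0.11 ± 0.16 for Sox9.

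**Figure D1:**
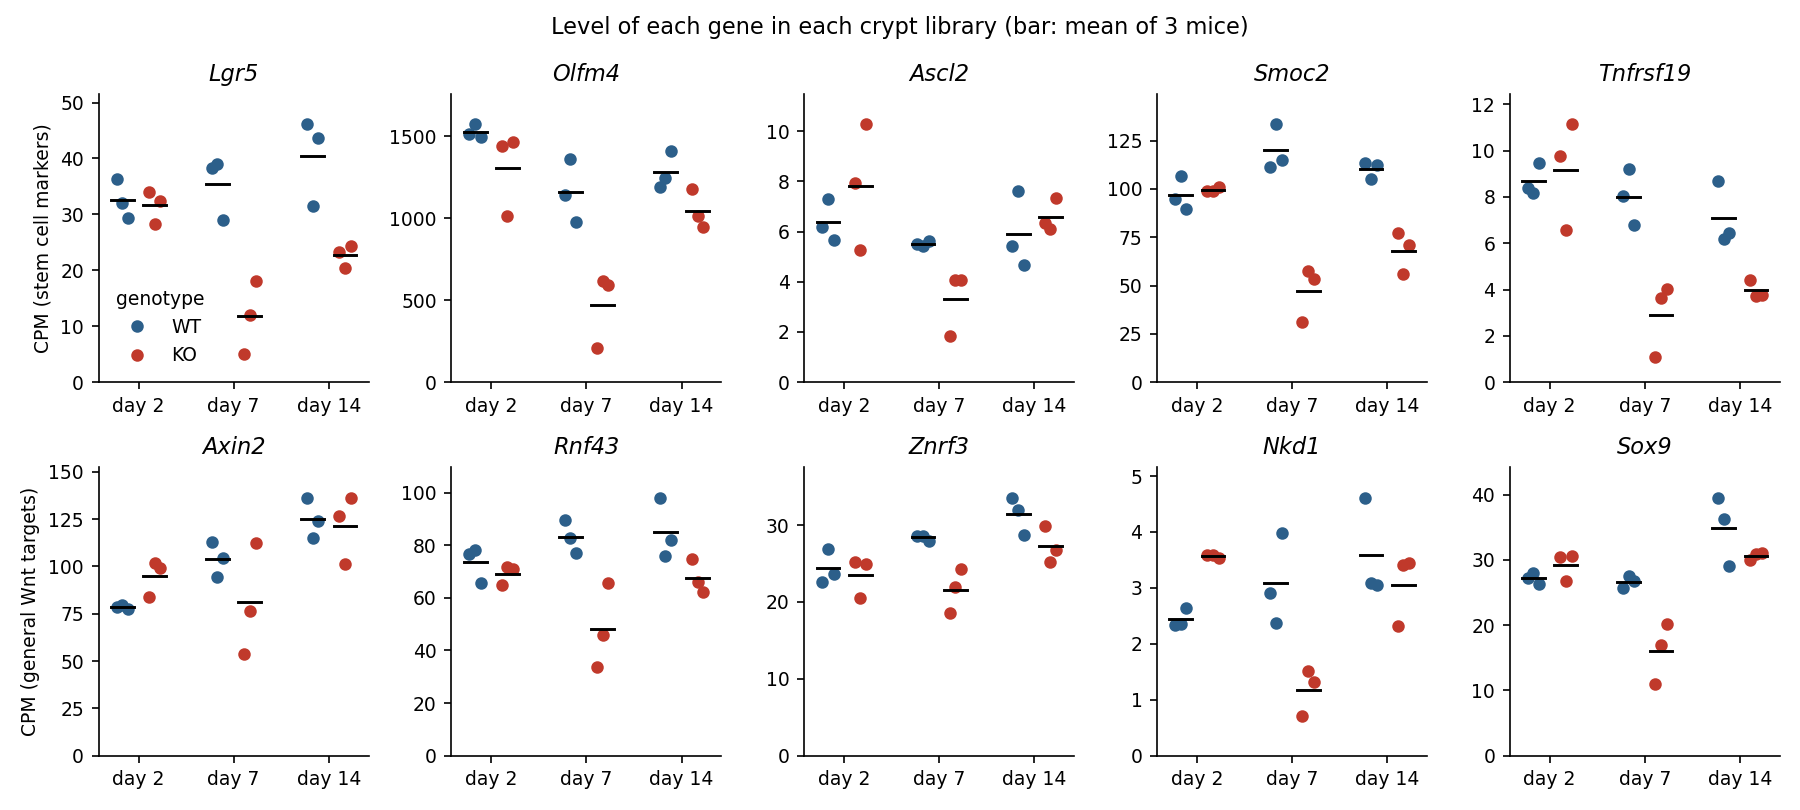
CPM (linear axis from 0) of each of the 10 genes in every library, by day and genotype, with 3 mice per group and a bar at each group mean; stem cell markers are in the upper row and general Wnt targets in the lower row. At day 7 the KO libraries lie below the WT libraries for every gene except Axin2, and at day 14 for Lgr5, Olfm4, Smoc2, Tnfrsf19 and Rnf43.

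At day 7 the stem cell markers were lower in KO crypts. Of the 5 genes 4 were called lower by edgeR's test, where 17.3% of all tested genes were called and 10.2% were called lower. All 5 had every KO library below every WT library, as 17.7% of tested genes did. In bulk crypts, fewer stem cells and less of these RNAs per cell cannot be told apart.

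Lgr5 fell from 38.3, 39.0 and 29.0 CPM in WT to 5.07, 12.1 and 18.2 CPM in KO, a log2 fold change of −1.59 ± 0.29 (edgeR adjusted p = 0.00131). Smoc2 fell from 111.6, 133.4 and 115.0 CPM to 31.2, 57.5 and 53.5 CPM (−1.34 ± 0.17, edgeR adjusted p = 3.62e-05), the smallest adjusted p among the members. The call of Lgr5 was lost in a model of the day 7 groups with the replicate number as a block (edgeR adjusted p = 0.0871). The KO means were 33.2% of the WT mean for Lgr5 and 39.5% for Smoc2. Tnfrsf19 went from 8.02, 9.20 and 6.79 CPM in WT to 1.07, 3.62 and 4.02 CPM in KO (−1.45 ± 0.31, edgeR adjusted p = 0.00296). Olfm4, the most abundant member, went from 1141, 1358 and 976.3 CPM to 206.1, 613.9 and 590.5 CPM (−1.30 ± 0.29, edgeR adjusted p = 0.00365). These 4 genes ended between 33.2% and 40.6% of WT. Ascl2, the transcription factor of the set, held 5.51, 5.43 and 5.61 CPM in WT and 1.82, 4.07 and 4.06 CPM in KO, with a log2 fold change of −0.73 ± 0.27. Its adjusted p of 0.0741 by edgeR's test missed the threshold, although the groups did not overlap. Ascl2 was called in 1 of 9 other settings, without a filter on low counts (edgeR adjusted p = 0.0211), and in 0 of 6 fits with 1 library left out (up to 0.361).

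The general Wnt targets were lower as well at day 7, over a wider range. Of the 5 genes 4 were called lower and 4 had no overlap between genotypes, Axin2 being the exception in both counts, beside the 10.2% of tested genes called lower and the 17.7% wholly below WT. Nkd1 dropped as far as the stem cell markers, from 2.91, 2.36 and 3.99 CPM in WT to 0.71, 1.51 and 1.31 CPM in KO (−1.38 ± 0.28, edgeR adjusted p = 0.00181), and the KO values rest on 16, 43 and 30 counts. Rnf43 held 89.7, 82.7 and 77.0 CPM in WT and 33.5, 45.7 and 65.5 in KO (−0.78 ± 0.17, edgeR adjusted p = 0.004). Sox9 held 25.7, 27.6 and 26.8 CPM in WT and 10.98, 16.95 and 20.17 in KO (−0.73 ± 0.16, edgeR adjusted p = 0.00367). Both stood near 60% of WT, at 58.1% for Rnf43 and 60.1% for Sox9. Znrf3, the partner ligase of Rnf43, moved less, from 28.6, 28.6 and 28.0 CPM in WT to 18.54, 22.01 and 24.28 in KO (−0.39 ± 0.12, edgeR adjusted p = 0.0338). The call of Znrf3 was lost without any 1 of 5 of the 6 day 7 libraries, KO replicate 3 being the exception, with adjusted p from 0.0722 to 0.233. Axin2, a common readout of Wnt signalling, held 113.0, 94.4 and 104.6 CPM in WT and 53.9, 76.7 and 112.6 in KO, and the groups overlapped through KO replicate 3 (−0.36 ± 0.19, edgeR adjusted p = 0.207). Without that library Axin2 was called at −0.64 (edgeR adjusted p = 0.00927).

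One library stood low at day 7. KO replicate 1 was the lowest of its group for all 10 members. Without it 7 of the 10 members were still called, the 8 above less Znrf3, with log2 fold changes of −1.21 for Lgr5, −1.09 for Smoc2, −1.11 for Nkd1 and −0.51 for Sox9. Axin2 then stood at −0.12. The same library had the lowest summed level of the 12 Paneth cell markers of its group, 1723 CPM against 4536 and 4508 CPM in the other KO libraries. It also had the highest summed level of the 12 enterocyte markers, 24890 CPM against 18140 and 16660 CPM, and all 3 lay above the 11540 to 14100 CPM of the WT libraries. The part of these cell types in the members' values was not tested.

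**Figure D2:**
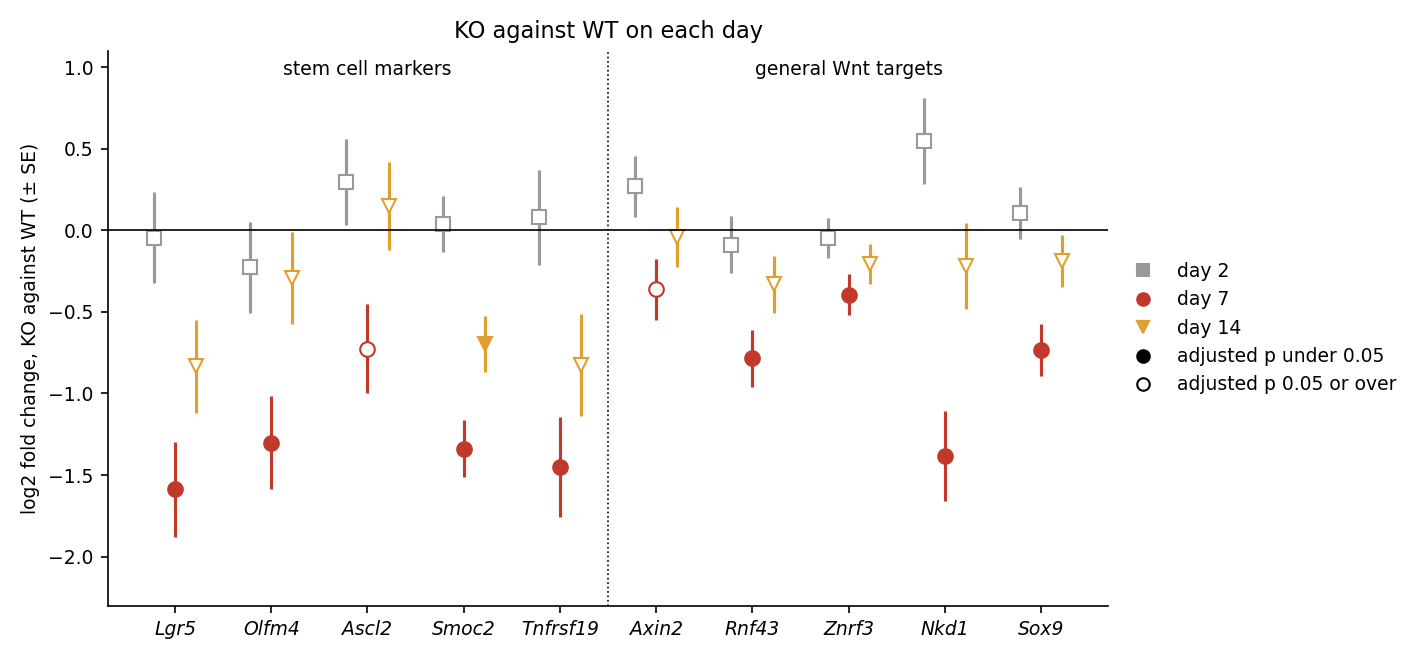
Log2 fold change of KO against WT (vertical axis, ± SE) for each gene at days 2, 7 and 14, fitted to 3 libraries per group; filled symbols have an adjusted p under 0.05. Day 7 holds the lowest value for every gene, from −1.59 for Lgr5 to −0.36 for Axin2, and at day 14 Smoc2 is the one filled symbol.

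The change between days was tested directly as the difference of the KO effects. From day 2 to day 7 the effect became more negative for all 10 members, and 5 were called, where 4.37% of all tested genes were called and 3.04% toward lower. Of these, 3 were stem cell markers, Lgr5 at −1.54 ± 0.40 (edgeR adjusted p = 0.0392), Smoc2 at −1.38 ± 0.24 (0.00306) and Tnfrsf19 at −1.53 ± 0.42 (0.0455), each a log2 difference of effects. The other 2 were Wnt targets, Nkd1 at −1.93 ± 0.38 (edgeR adjusted p = 0.00653) and Sox9 at −0.84 ± 0.23 (0.0398). Nkd1 and Smoc2 kept their calls with any 1 library left out. Lgr5 and Tnfrsf19 were each called in 3 and Sox9 in 2 of 12 such fits, and with the replicate block the calls of these 3 genes were lost (edgeR adjusted p = 0.05, 0.0613 and 0.0536). Nkd1 was the member with the largest difference, since it lay above WT at day 2 and below it at day 7. Inside the KO groups the members themselves fell, and 8 of the 10 were called lower at day 7 than at day 2, where 16% of tested genes were called and 8.8% lower. The call of Rnf43 was lost in 6 of 9 other settings and without any 1 of 5 of the 6 libraries compared, KO replicate 3 of day 7 being the exception, with adjusted p up to 0.224 by edgeR's test. The 8 ran from −0.52 ± 0.17 for Rnf43 (edgeR adjusted p = 0.0482) to −1.65 ± 0.31 for Tnfrsf19 (0.00132), and Ascl2, which was not called against WT at day 7, was among them at −1.23 ± 0.27 (0.00416). Axin2 (−0.23 ± 0.19, edgeR adjusted p = 0.446) and Znrf3 (−0.13 ± 0.12, 0.541) were the 2 without a call. The mice of days 2 and 7 also differ in the number of injections, 2 against 5, which the WT mice share.

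The WT groups gave the background of time. None of the 10 members was called between WT days 2 and 7, with adjusted p from 0.212 to 0.939 by edgeR's test, where 0.553% of tested genes were called. Between WT days 7 and 14 none was called either, where 0.0796% were. In each of these comparisons 1 member had an unadjusted p under 0.05, Axin2 between days 2 and 7 (0.40 ± 0.19 on the log2 scale, where 22.4% of tested genes passed) and Sox9 between days 7 and 14 (0.39 ± 0.16, where 5.18% did). DESeq2 called 0 members in both. Axin2 thus held 77.7 to 79.6 CPM in WT at day 2 and 115.2 to 135.9 CPM at day 14.

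Taking the 2 classes side by side, the stem cell markers had the lower median in KO crypts at days 7 and 14. The median log2 fold change was 0.04 for the stem cell markers and 0.11 for the Wnt targets at day 2, −1.34 and −0.73 at day 7, and −0.70 and −0.21 at day 14. The day 2 median of the stem cell markers turned sign with 1 library left out, from −0.0652 to 0.0431 over the 6 fits. Over all tested genes the median was 0.00, 0.02 and 0.00 in size. Sox9 belongs least clearly to the Wnt targets, and without it their median was −0.59 at day 7 and −0.21 at day 14. The ranges of the classes overlapped at day 7, where Nkd1 lay among the stem cell markers and Ascl2 among the Wnt targets. They overlapped at day 14 too, where Ascl2 lay above all 5 Wnt targets and Olfm4 (−0.29) above Rnf43 (−0.33). No test of the difference between the classes was made, given how the genes were chosen.

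The classes were also set side by side in single libraries. Each library was given the median of its log2 differences from the WT mean of the day. At day 7 the 3 KO libraries had medians of −2.48, −1.06 and −0.96 for the stem cell markers and −1.27, −0.65 and −0.34 for the Wnt targets. At day 14 they had −0.52, −0.90 and −0.63 for the stem cell markers and −0.18, −0.30 and −0.16 for the Wnt targets. In each of these 6 libraries the stem cell markers were the lower class, by 0.33 to 1.2. In the 3 KO libraries of day 2 they were lower too, by 0.02, 0.25 and 0.11. The WT libraries had differences between the classes of −0.23 to 0.16 over the 3 days. The genes were not all equally close to each other over the 18 libraries. Pairs of stem cell markers had a median Pearson r of log2 CPM of 0.88 (10 pairs), pairs of Wnt targets 0.75 (10 pairs) and mixed pairs 0.73 (25 pairs). The closest pair was a mixed one, Lgr5 with Rnf43 at r = 0.94, and the least close was Axin2 with Tnfrsf19 at r = 0.30. These values share the libraries and the group differences. With group means removed the 3 medians were 0.80, 0.63 and 0.66.

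**Figure D3:**
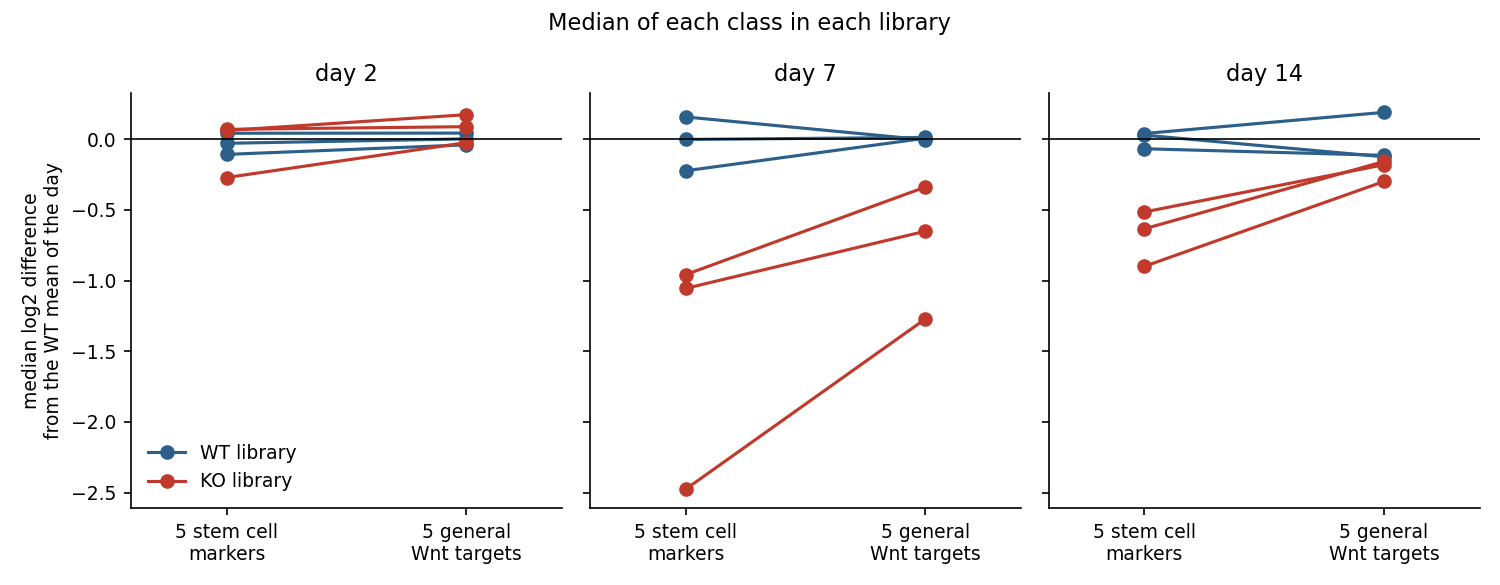
Median log2 difference from the WT mean of the day (vertical axis) over the 5 stem cell markers and over the 5 general Wnt targets, with a line for each of the 18 libraries. The 3 KO lines of day 7 run from −2.48, −1.06 and −0.96 up to −1.27, −0.65 and −0.34, and those of day 14 from −0.52, −0.90 and −0.63 up to −0.18, −0.30 and −0.16.

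At day 14 Smoc2 was the one member called, at 77.0, 56.1 and 70.9 CPM in KO and 113.2, 105.0 and 112.3 in WT (−0.70 ± 0.17, edgeR adjusted p = 0.0158), where 7.92% of all tested genes were called and 4.69% lower. The call of Smoc2 was lost without KO replicate 2 (edgeR adjusted p = 0.105), KO replicate 3 (0.0548) or WT replicate 3 (0.055). Lgr5 held 23.2, 20.5 and 24.3 CPM in KO and 46.1, 31.5 and 43.7 in WT, a log2 fold change of −0.83 ± 0.28 (edgeR adjusted p = 0.0873). Tnfrsf19 held 4.43, 3.72 and 3.78 CPM in KO and 8.69, 6.20 and 6.44 in WT (−0.82 ± 0.31, edgeR adjusted p = 0.118). For these 3 genes no KO library reached a WT library, and the KO means stood at 56.1% of WT for Lgr5, 61.7% for Smoc2 and 55.9% for Tnfrsf19. The labels give only a replicate number, which was treated as a pair at day 14 from a check on these same data. With the number as a block in a model of the day 14 groups, Lgr5 (edgeR adjusted p = 0.00286) and Tnfrsf19 (0.0223) were called beside Smoc2 (0.00446). The block in the model of all 18 libraries left Smoc2 as the one call (0.024), with Lgr5 at 0.109. In a model of the day 14 groups without a block Lgr5 (0.0136) and Tnfrsf19 (0.0414) were called as well. With all 18 libraries DESeq2's Wald test also called Lgr5 lower at day 14 (−0.82, adjusted p = 0.0434).

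Olfm4 and Ascl2 were closer to WT. Olfm4 held 1175, 1010 and 947.7 CPM in KO and 1188, 1244 and 1406 in WT, 81.6% of the WT mean (−0.29 ± 0.28, edgeR adjusted p = 0.612). The highest KO library and the lowest WT library were nearly level, without overlap. Ascl2 held 6.33, 6.12 and 7.35 CPM in KO and 5.44, 7.62 and 4.68 in WT and was the one member with a mean above WT (0.15 ± 0.27, edgeR adjusted p = 0.818). The groups overlapped. Its SE leaves room for a change of either sign.

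None of the general Wnt targets was called at day 14. Rnf43 was the one whose groups did not overlap, with 74.7, 66.2 and 62.2 CPM in KO and 98.0, 75.7 and 81.9 in WT (−0.33 ± 0.17, edgeR adjusted p = 0.284). In all, 5 of the 10 members lay wholly below WT, where 14.1% of all tested genes did. Axin2 was level with WT, at 126.8, 101.3 and 136.2 CPM in KO and 135.9, 115.2 and 123.9 in WT (−0.04 ± 0.19, edgeR adjusted p = 0.932), and its sign turned without KO replicate 2 (0.09) or WT replicate 1 (0.03). Nkd1 stood at 2.32, 3.41 and 3.44 CPM in KO and 4.61, 3.08 and 3.06 in WT (−0.22 ± 0.26). Sox9 was uniform in KO, at 29.99, 30.97 and 31.03 CPM, and spread from 29.0 to 39.5 CPM in WT (−0.19 ± 0.16). Znrf3 held 29.8, 25.2 and 26.7 CPM in KO and 33.5, 32.0 and 28.8 in WT (−0.21 ± 0.12). The last 3 genes overlapped between genotypes, with edgeR adjusted p of 0.707, 0.557 and 0.365.

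Whether the members had recovered by day 14 was tested as the difference of the KO effects of days 14 and 7. All 10 differences were positive, from 0.19 ± 0.18 for Znrf3 to 1.17 ± 0.38 for Nkd1 on the log2 scale, and none was called (edgeR adjusted p = 0.999 for each), as 0% of all tested genes were. At an unadjusted p under 0.05, Olfm4, Ascl2, Smoc2, Nkd1 and Sox9 passed (5 of 10), as did 4.46% of all tested genes, and DESeq2 called 0 members too. All of these comparisons share the day 7 libraries. Without KO replicate 1 of day 7 the number at an unadjusted p under 0.05 was 3, and without KO replicate 3 it was 8. The 4.46% belongs to the fit of all libraries, and the share in the fits with a library left out was not counted. As a description, the part of the day 7 log2 difference left at day 14 was 56.8% for Tnfrsf19, 52.4% for Lgr5, 52.2% for Znrf3, 51.9% for Smoc2 and 42.1% for Rnf43. It was 25.3% for Sox9, 22.5% for Olfm4, 15.8% for Nkd1 and 11.4% for Axin2, and Ascl2 had changed sign. With 1 library of either day left out these shares ran from −25.1% to 34.7% for Axin2, 0.525% to 22.9% for Nkd1, 15.9% to 31.7% for Olfm4, 11.5% to 39.7% for Sox9 and −53.5% to −1.60% for Ascl2. They ran from 27.0% to 58.8% for Rnf43, 34.2% to 74.6% for Znrf3, 41.5% to 68.6% for Lgr5, 41.7% to 63.7% for Smoc2 and 45.3% to 78.8% for Tnfrsf19, so the order of the genes is uncertain. Each class held genes near both ends.

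Within the KO groups every member was higher at day 14 than at day 7. Sox9 was the one called (0.93 ± 0.16, edgeR adjusted p = 0.0472), where 0.0468% of all tested genes were called and 0.0187% higher. In WT crypts Sox9 also stood higher at day 14 than at day 7 (0.39 ± 0.16), without a call (edgeR adjusted p = 0.895). The call of Sox9 was lost without any 1 of 5 of the 6 libraries compared, KO replicate 3 of day 7 being the exception, with adjusted p from 0.0832 to 0.281. Of the 10 members 9 had an unadjusted p under 0.05, all but Tnfrsf19, against 9.27% of tested genes. Nkd1 had the largest difference of the 10 at 1.35 ± 0.28 (edgeR adjusted p = 0.0791), followed by Olfm4 at 1.15 ± 0.28 (0.119), Ascl2 at 0.98 ± 0.27 (0.181) and Lgr5 at 0.94 ± 0.29 (0.241). Tnfrsf19 moved by 0.45 ± 0.32 (edgeR adjusted p = 0.741). For 6 members every day 14 library lay above every day 7 library of the KO, as 7.73% of tested genes did. DESeq2 called 4 of these changes, those of Olfm4, Ascl2, Nkd1 and Sox9. The share of all tested genes that DESeq2 called was not counted, so this number has no background beside it.

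Of 23 further stem cell markers, all of them tested, 12 were called lower and 1 higher at day 7, with a median log2 fold change of −0.85, where 17.3% of all tested genes were called and 10.2% lower. At day 14 8 were called lower and none higher, with a median of −0.53, where 7.92% were called and 4.69% lower. Kcnq1, a potassium channel, was lower at day 7 (−2.32 ± 0.20, edgeR adjusted p = 2.91e-07) and at day 14 (−1.39 ± 0.19, 0.000141). Prom1, which encodes the membrane protein CD133, was at −1.05 ± 0.15 and −0.77 ± 0.15 (edgeR adjusted p = 0.000102 and 0.00305), and Tert, the telomerase reverse transcriptase, at −1.05 ± 0.16 and −1.07 ± 0.16 (0.000121 and 0.000365). Scn2b, a sodium channel subunit, was at −1.61 ± 0.27 and −1.11 ± 0.26 (edgeR adjusted p = 4e-04 and 0.0126). Slc12a2, a chloride cotransporter enriched in stem cells, was called at day 7 (−1.23 ± 0.21, 0.000519) and not at day 14 (−0.60 ± 0.21, 0.0871). The one called higher was Cd44, a Wnt-induced adhesion receptor named here after its value was seen. It was at 55.3 to 76.8 CPM in KO and 35.1 to 46.1 CPM in WT at day 7 (0.70 ± 0.16, edgeR adjusted p = 0.00504). The other 10 were not called at day 7, among them Bmi1 (−0.16), Hopx (−0.16), Lrig1 (−0.19) and Msi1 (0.21), named after their values were seen.

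Of 15 further Wnt targets 12 were tested. At day 7 2 of them were called lower and none higher, where 17.3% of all tested genes were called and 10.2% lower, with a median of −0.44, and none was called at day 14, with a median of −0.16. Nkd2, the paralog of Nkd1, was at −1.53 ± 0.30 (edgeR adjusted p = 0.00143) at day 7 and −0.48 ± 0.30 (0.387) at day 14. Dkk3, a member of the Dickkopf family, was at −1.90 ± 0.56 (edgeR adjusted p = 0.0241), on 5 to 9 counts per KO library and 19 to 29 per WT library, and at −0.59 ± 0.52 (0.568) at day 14. Whether this list and the stem cell list differ was not tested.

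The upstream parts of the pathway were described from lists of ligands, receptors, transducers and antagonists. Their counts stand against the same shares of all tested genes, 17.3% called at day 7 and 7.92% at day 14. Of 23 Wnts and R-spondins, 10 were tested and 2 were lower and 3 higher at day 7, with a median of 0.19. Wnt3, the Wnt that Paneth cells supply to the stem cells, was lower in KO at day 7, at 2.71 to 5.76 CPM against 7.41 to 8.72 CPM in WT (−0.87 ± 0.26, edgeR adjusted p = 0.026), and was not called at day 14 (−0.30 ± 0.26, 0.569). Wnt9b was called lower on 2 to 7 counts per KO library and 8 to 17 per WT library, and Wnt11 higher on 16 to 23 counts in KO and 0 to 8 in WT, and neither was called at day 14. Wnt4 was called higher at day 7 (1.48 ± 0.29, edgeR adjusted p = 0.0016) and day 14 (1.01 ± 0.29, 0.036), and so was Wnt6 (1.44 ± 0.33, 0.00533, and 1.34 ± 0.34, 0.0191). They were the 2 ligands called at day 14, where the list had a median of −0.03. Of 15 receptors, 13 were tested and 4 Frizzled genes were called lower at day 7 and none higher, with a median of −0.44, and 1 was called lower at day 14, with a median of −0.19. Fzd1 was lower on both days (−1.96 ± 0.25 and −1.56 ± 0.25, edgeR adjusted p = 2.92e-05 and 0.000491). Fzd2 (−1.02 ± 0.30), Fzd6 (−0.66 ± 0.20) and Fzd9 (−1.71 ± 0.37) were called at day 7 alone among these 2 days, with edgeR adjusted p of 0.0238, 0.0251 and 0.00352, and stood at −0.77, −0.20 and −0.44 at day 14.

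A list of 24 genes ran from Dishevelled to β-catenin and the TCF factors, and also held Porcn and Wls, which act in making and releasing Wnts. Of these 23 were tested. At day 7 the median was −0.03, with a range from −0.83 for Tle2 to 0.99 for Tcf7l1, neither called and both named after their values were seen. At day 14 the median was 0.00 in size. In all 1 gene was called lower at day 7 and 1 higher at day 14, beside 17.3% and 7.92% of all tested genes called. They were Amer1, a membrane anchor of APC (−0.36 ± 0.11, edgeR adjusted p = 0.0337 at day 7, and −0.20 ± 0.12, 0.332 at day 14), and Dvl1 at day 14 (0.43 ± 0.13, 0.0491), named after its value was seen. Of 8 secreted antagonists 3 were tested, with a median of 0.37 at day 7 and −0.20 at day 14. Sfrp5, which binds Wnts outside the cell, was lower at day 7 (−1.89 ± 0.37, edgeR adjusted p = 0.00145) and day 14 (−1.55 ± 0.35, 0.00858). Dkk4, itself a Wnt target, was called higher at day 7 on 16 to 25 counts in KO and 2 to 6 in WT, and was not called at day 14 (adjusted p = 0.373 by edgeR's test).

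**Figure D4:**
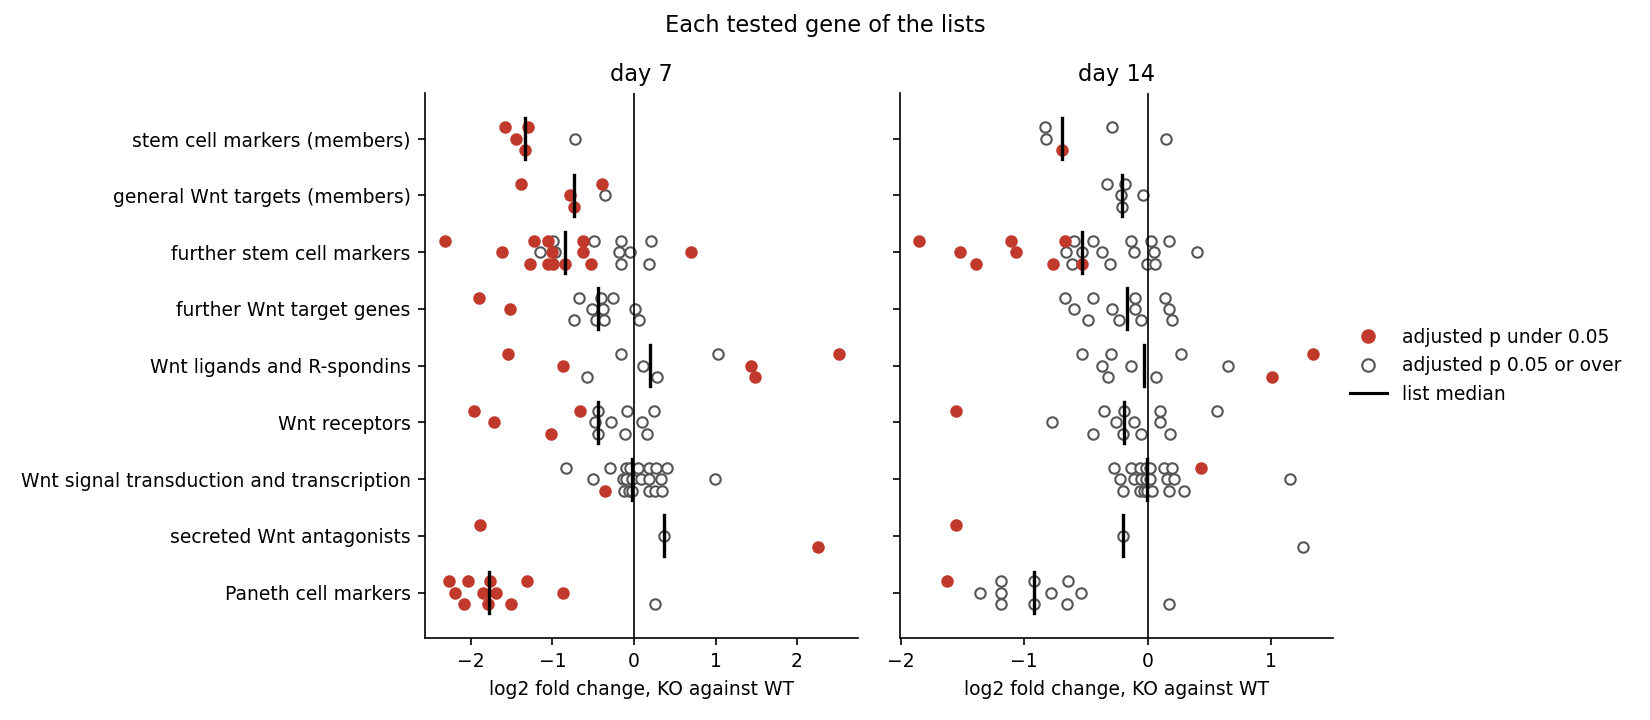
Log2 fold change of KO against WT (horizontal axis) for each tested gene of the stem cell, Wnt pathway and Paneth cell lists at day 7 and day 14; filled red points have an adjusted p under 0.05 and black bars are list medians. At day 7 the Paneth markers have the lowest median (−1.78), followed by the stem cell markers (−1.34), while the transduction genes centre on −0.03.

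Markers of Paneth cells, the neighbours of the stem cells, moved with the members. At day 7, 11 of the 12 Paneth markers were called lower and none higher, with a median of −1.78, and at day 14 Ang4 alone was called, with a median of −0.92. Summed over the list, KO libraries held 1723 to 4536 CPM and WT libraries 10150 to 17200 CPM at day 7, and 6562 to 8514 CPM against 10560 to 23940 CPM at day 14. At day 2 the ranges overlapped, at 9785 to 19940 CPM in KO and 8223 to 18770 CPM in WT, and no marker was at 0 in any group. Lyz1, the lysozyme of Paneth granules, was at −1.80 ± 0.38 (edgeR adjusted p = 0.00303) at day 7 and −0.92 ± 0.38 (0.15) at day 14. Itln1, a lectin, was at −2.09 ± 0.42 and −1.19 ± 0.41 (edgeR adjusted p = 0.0023 and 0.0849), and the antimicrobial gene Ang4 at −2.20 ± 0.43 and −1.63 ± 0.43 (0.00266 and 0.0271). Cd24a, a surface protein of Paneth cells, was at −0.87 ± 0.18 and −0.54 ± 0.18 (edgeR adjusted p = 0.00272 and 0.0762), and Defa24, a defensin, at −2.04 ± 0.47 and −1.19 ± 0.46 (0.00647 and 0.134). Paneth cells also express Sox9 and Wnt3. Of 16 proliferation genes 1 was called lower (Aurkb, −0.58 ± 0.18, edgeR adjusted p = 0.0292) and 1 higher (Plk1, 0.43 ± 0.13, 0.0272) at day 7. At day 14 Aurkb (−0.72 ± 0.18, edgeR adjusted p = 0.015), Top2a (−0.53 ± 0.15, 0.029) and Ccnb2 (−0.72 ± 0.19, 0.0216) were called lower, the last 2 named after their values were seen, and Plk1 was not called (0.33 ± 0.13, 0.128). Of all tested genes 17.3% were called at day 7 and 7.92% at day 14. The medians of the list were −0.16 at day 7 and −0.33 at day 14.

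The genes whose pattern was most like that of Lgr5 and of Axin2 were sought among 17080 tested genes with a mean of at least 1 CPM, by Pearson r of log2 CPM over the 18 libraries. For Lgr5 they were Slc12a2 (r = 0.97), Sorcs2 (0.95), Clca3b (0.95), Adra2a (0.95) and Nsd2 (0.94), of which Slc12a2 was also on the stem cell list. For Axin2 they were Gm11670 (r = 0.96), Notch1 (0.93), Ephb3 (0.93), Boc (0.93) and 9330121J05Rik (0.92). Gm11670 is the antisense gene that shares exon bases with Axin2, and without strand in the counting the reads over those shared bases cannot be told apart. The points share their libraries, depth and group differences, and no gene was on both lists.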

How the data were processed

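Total RNA of small intestinal crypts, depleted of ribosomal RNA, had been sequenced from 18 mice with 1 library per mouse. The authors aligned reads with STAR 2.7.3 to mm10 and counted fragments with featureCounts 1.6.4, per the submitters' processing notes, and deposited 1 table of unnormalized counts per gene. Its header names GENCODE release 23 for mouse and the study's methods release 26. Counting ignored strand, and fragments overlapping several genes counted for each.

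Groups came from the sample titles. The 20 genes that the study removed as differing between male and female mice were left out. Genes were filtered with filterByExpr of edgeR 4.0.16 and normalized with TMM, and CPM and RPKM use these library sizes. All 18 libraries entered 1 quasi-likelihood fit with 1 mean per group (limma 3.58.1, R 4.3.3). The 9 comparisons were tested with Benjamini-Hochberg adjustment over 21349 genes at a threshold of 0.05, and a gene below it is called higher or lower. Log2 CPM used a prior count of 2. The script was tested on simulated data.

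The members, classes and lists were chosen with earlier results of these data known. Named genes are the 10 members, Prmt1, the genes of each list called at day 7 (the 5 with the smallest adjusted p where more than 5 were called) and the 5 genes most correlated with Lgr5 and with Axin2. Outside this rule, Epcam, Cdh1, Porcn and Wls describe their lists and Gm6999 overlaps Olfm4. Other genes outside it are marked as named after their values were seen. Mice were matched for age and sex within each day's comparison per the study's methods, and sex was not modelled.

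Same-numbered KO and WT libraries had correlated deviations at day 14 (r = 0.23, 0.18 and 0.16) and not throughout at day 2 (0.05, 0.16 and 0.38) or day 7 (−0.16, 0.21 and 0.08). The day 14 numbers were therefore treated as pairs, from this check and not from the labels. Alternatives were DESeq2 1.42.0's Wald test, its size factors, no filter, a mean count of at least 50, the replicate number as a block, a model restricted to the groups of each comparison, the 20 removed genes kept, the 20 most abundant genes left out and each library left out. Read counts are given for the genes with few of them.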

Additional observations from a re-analysis of the deposited data

Results flagged for a closer look

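The KO effects of 5 members stood out because they differed between day 2 and day 7 in a direct test of that difference. The effect changed by −1.54 on the log2 scale for Lgr5, −1.38 for Smoc2, −1.53 for Tnfrsf19, −1.93 for Nkd1 and −0.84 for Sox9. Smoc2 and Nkd1 were called under all 21 other settings run, with adjusted p up to 0.012 and 0.0247 by edgeR's test when 1 library was left out. The other 3 lost their calls with the replicate block and in 9 or 10 of 12 fits with 1 library left out, with adjusted p of up to 0.106 for Lgr5, 0.107 for Tnfrsf19 and 0.0935 for Sox9 over the settings.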

How the results depend on the processing

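The number of members called at days 2 and 7, between the WT groups, between KO days 2 and 7 and in the difference of effects of days 14 and 7 stayed within 1.5 times the reported number under every setting run. At day 7 it was 6 to 8 under other settings and 7 to 9 with 1 library left out. At day 14 it was 1 as reported, 2 with DESeq2, 2 without a filter, 3 in the model of only the groups compared, 3 in that model with the replicate block (chosen after the pairing check) and 0 to 1 with 1 library left out. For the difference of effects of days 7 and 2 it was 5, against 2 with the replicate block, 2 in the model of only the groups compared, 2 in that model with the block and 2 to 7 with 1 library left out. For KO day 14 against KO day 7 it was 1, against 4 with DESeq2, 4 without a filter, 0 with the replicate block, 0 in the model of only the groups compared, 0 in that model with the block and 0 to 4 with 1 library left out. The cause of these changes was not tested, and the shares of all tested genes called under these settings were not counted. The median of the Wnt targets at day 14 ranged from −0.291 to −0.0845 with 1 library left out.

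The replicate block changed no other count of calls by over 1.5 times. The labels give only a number on each day. In the model of the day 7 groups with the block 6 members were called, Lgr5 (edgeR adjusted p = 0.0871) and Znrf3 (0.0842) being lost. At day 14 each KO library correlated best with the WT library of its own number.

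Signs of single genes turned in 15 cases, all of differences that were not called, and the median of the stem cell markers at day 2 ranged from −0.0652 to 0.0431. With 1 library left out, the KO effect at day 2 ranged from −0.123 to 0.0403 for Lgr5 (0.0303 among them), −0.0982 to 0.0442 for Znrf3 (0.0290 among them), −0.0892 to 0.273 for Tnfrsf19 and −0.0259 to 0.109 for Smoc2, and at day 14 from −0.118 to 0.0904 for Axin2 (0.0299 among them). Axin2 between KO days 7 and 2 ranged from −0.517 to 0.00789. Between WT days 7 and 2 Sox9 ranged from −0.0648 to 0.00173, and stood at 0.0168 when only genes averaging 50 or more counts were tested and at 0.00811 without the 20 most abundant genes. Between WT days 14 and 7 Rnf43 ranged from −0.0594 to 0.111 (−0.0167 among them) and Ascl2 from −0.132 to 0.270.

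With 3 mice per group the difference of effects between days has a wider error than either effect, and a missed threshold does not show that values were alike. Leaving out 1 library left 2 in its group.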

Other observations

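Markers of the other crypt and villus cells were also counted, beside the 17.3% of all tested genes called at day 7 and the 7.92% called at day 14. Of 8 tested markers of regenerative epithelium 4 were called higher in KO at day 7 and none lower, with a median log2 fold change of 1.28. They were the growth factor genes Areg (3.96 ± 0.43, edgeR adjusted p = 1.63e-05) and Ereg (2.26 ± 0.45, 0.00264), the surface antigen gene Ly6a (3.77 ± 0.64, 0.000701) and the cytokine gene Il33 (1.36 ± 0.31, 0.00541). At day 14 Areg was still called (1.82 ± 0.42, edgeR adjusted p = 0.0118) and the others stood at 1.02, 0.32 and 0.96, with a list median of 0.24. All 10 enteroendocrine markers were called higher at both days, with medians of 1.16 and 1.35. Tph1, Chgb, Cck, Chga and Neurod1 had the smallest adjusted p at day 7, at 1.85, 1.37, 1.38, 1.03 and 1.2, and stood at 2.18, 1.57, 1.33, 1.78 and 1.29 at day 14. Of 12 enterocyte markers 2 were higher (Fabp1 at 1.55 and Fabp2 at 1.22, both fatty acid binding proteins) and 1 lower (Lct, the lactase, at −1.42) at day 7, with medians of 0.66 at day 7 and 0.74 at day 14. At day 14 these 3 stood at 1.19, 1.18 and −0.59 and none of them was called, while Sis, the sucrase-isomaltase, was called higher (1.15), named after its value was seen. Of 8 goblet cell markers 3 were lower at day 7, Spink4 (−0.93), Fcgbp (−0.82) and Clca1 (−0.59), with a list median of 0.11. Clca1 was the one called at day 14 (−0.73), beside Spink4 at −0.63 and Fcgbp at −0.45, with a median of 0.02. Of 7 tested tuft cell markers Dclk1 was lower at day 7 (−1.04) and not at day 14 (−0.20), with medians of −0.60 and −0.07. Of 13 tested stromal markers Vim (1.08) and Pecam1 (1.29) were higher at day 7 and none was called at day 14, where they stood at 0.62 and 0.65, with medians of 0.37 and 0.14. The immune list had medians of 0.42 and −0.03 and the epithelial list 0.03 and −0.04.

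For 2 members the genes with the closest pattern over the 18 libraries included Paneth cell genes, as seen after their values were known. The gene most like Nkd1 was Lyz1 (r = 0.91), with the defensin pseudogene Defa-ps18 also among the 5 closest (0.91). The gene most like Tnfrsf19 was Cdca7 (r = 0.95), which is on the list of further stem cell markers. The 5 closest to Tnfrsf19 also included Defa-ps6 (0.94) and Cd24a (0.93). These are descriptions over libraries that share their group differences.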
